A study of Mus musculus with 4 samples.

Results

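The Adamts12 domain is the stretch chr15:10976001-11321600 (mm9), 345.6 kb that lie just upstream of the engineered topologically associating domain (TAD) in these cells. Its members were the bin pairs with both bins inside that stretch, a rule that used positions and no contact values. At the 6.4 kb bins of the maps it held 54 bins and 1431 pairs of different bins, of 103740 such pairs in the captured region of chromosome 15 (chr15:10278401-13196800, 456 bins) and 929566 over all captured regions. The domain is nearly filled by Adamts12 (ENSMUSG00000047497.8, chr15:10994545-11276622, plus strand), a gene of 282.1 kb that encodes a secreted metalloprotease of the ADAMTS family. Beyond its end lie the small nucleolar RNA SNORA17 (chr15:11291366-11291492, minus strand) and the 3′ part of Tars (chr15:11313418-11329413, minus strand), the gene of the threonyl-tRNA synthetase, whose start is outside the domain.

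Tiled Capture-C, which counts ligation products between sites of a captured region, had been run on E14 cells, a line of mouse embryonic stem cells (mESCs), in 4 libraries, 1 per group. All lines carried TetO and LacO operator arrays on 1 allele inside the neighbouring array TAD, from which internal CTCF sites had been deleted, the fluorescent proteins TetR-tdTomato and LacI-eGFP that bind these arrays, and the cohesin subunit RAD21 fused to HaloTag and the FKBP degron, and all were grown with leukemia inhibitory factor and inhibitors of MEK and GSK3. Line 1A2 had no ectopic CTCF sites beside the arrays, line 1F4 had none either but kept the promoters of its resistance cassettes, and line 1B1 had convergent 3xCTCF cassettes beside both arrays. The fourth library was 1B1 treated for 2 h with 500 nM dTAG-13, which sends RAD21 to degradation. Each line is 1 clone, and each map sums both alleles. Contact maps hold no expression, so the labelled cell type could not be checked against markers. With 1 library per group no difference below has a replicate check, and the errors given are counting (Poisson) errors of the reads, which cover counting error only.

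A TAD is a stretch whose sites contact each other more often than they contact the flanks. Cohesin is a ring complex that is thought to extrude chromatin loops until it meets CTCF bound in a given orientation, and loss of cohesin is known to weaken TAD boundaries and loops. Contacts also fall with genomic separation, so each contact was divided by the mean signal at its separation over the captured region (observed/expected, O/E), where 1 means an average contact for that separation. The questions asked here were how the promoter, the body and the ends of a long gene contact each other, and which of these contacts differed when CTCF sites were added next door or cohesin was degraded.

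The 300 bases around the RefSeq start of Adamts12 are shown because this is the promoter whose profile is followed below. They were taken from RefSeq (GRCm38.p6) and matched NCBIM37 (mm9) once on chromosome 15, at chr15:10994278-10994577, plus strand. Capitals mark the bases from the start site on.
Adamts12 promoter: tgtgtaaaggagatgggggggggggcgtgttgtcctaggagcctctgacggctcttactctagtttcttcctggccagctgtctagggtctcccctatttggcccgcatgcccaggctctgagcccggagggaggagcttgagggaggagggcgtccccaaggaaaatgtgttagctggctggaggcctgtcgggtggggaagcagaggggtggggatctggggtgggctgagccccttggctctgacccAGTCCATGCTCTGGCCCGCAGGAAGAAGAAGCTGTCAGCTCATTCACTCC
The GC content of these bases was 62.0%, against a median of 52.7% over 32851 mouse promoters of the same length, and they held 7 CpG. They held no match to the 12-base CTCF core consensus, searched on both strands, and 0.56% of the promoters did. The start site lay in the bin chr15:10988801-10995200, and the promoter viewpoint below is this bin with 1 bin on each side.

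The same core consensus was absent from all 54 domain bins and present in 9 of the 456 bins of the region (2.0%). One of these was the bin of the downstream boundary described below (chr15:11334401-11340800, between Tars and the array TAD), which held a pair of matches. They are shown because this is where the domain ends in the maps; both lie between genes on the minus strand, are written 5′ to 3′ on that strand, and have the core in capitals.
chr15:11336795-11336806: ttcaCCAGCAGAGGGCgtca
chr15:11337309-11337320: gtaaCCACTAGGTGGCgacc
A match to these letters is a description of the sequence and not a measurement of CTCF binding.

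The domain was well covered. In the order 1A2, 1F4, 1B1 and cohesin degraded, which is kept below wherever 4 values follow each other, 117087, 148456, 112319 and 138344 reads had both ends in it. Different bins were joined by 59873, 74580, 59064 and 69691 of them. Between 1427 and 1430 of the 1431 pairs held reads in each library, and pairs at least 10 bins (64.0 kb) apart held a median of 17, 20, 17 and 14 reads. The longest contacts of the gene thus rested on few reads per bin pair, and they were read as means over many pairs or over windows of 3 by 3 bins. The whole libraries held 3214144 to 4089968 recovered reads, of which 37.8% to 38.1% lay in the region on chromosome 15.

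Averaged over its distant pairs, the domain had contacts above the average for their separation in every library, but not in all of its blocks, as given below by segment. Over the 990 pairs at least 10 bins apart line 1A2 had a mean O/E of 1.22 ± 0.011 (19170 reads), line 1F4 of 1.25 ± 0.0099 (23180 reads), and line 1B1 of 1.22 ± 0.010 untreated (19876 reads) and 1.25 ± 0.012 with cohesin degraded (16963 reads). The libraries thus lay within 0.03 of each other, and the change from 1B1 to cohesin degraded, 0.03 ± 0.02 on the log2 scale, was as large as the range of 0.03 among the 3 untreated libraries. With the domain shortened by 3 bins at each end this change was 0.065, within the 95% counting interval of the reported value. In 7 stretches of the full domain's length that tiled the rest of the region, O/E in 1B1 ranged from 0.759 to 1.17. These were placed without regard to boundaries and 6 of 7 held an insulation minimum, while the domain lies between such minima, so they do not rank the domain. The unscaled contact signal of the same domain pairs was 91.5, 90.0 and 94.5 in 1A2, 1F4 and 1B1 and 73.5 after degradation, a log2 change of -0.36 against 1B1, so that the O/E held while the signal at these separations fell in the domain and in the region alike.

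**Figure D1:**
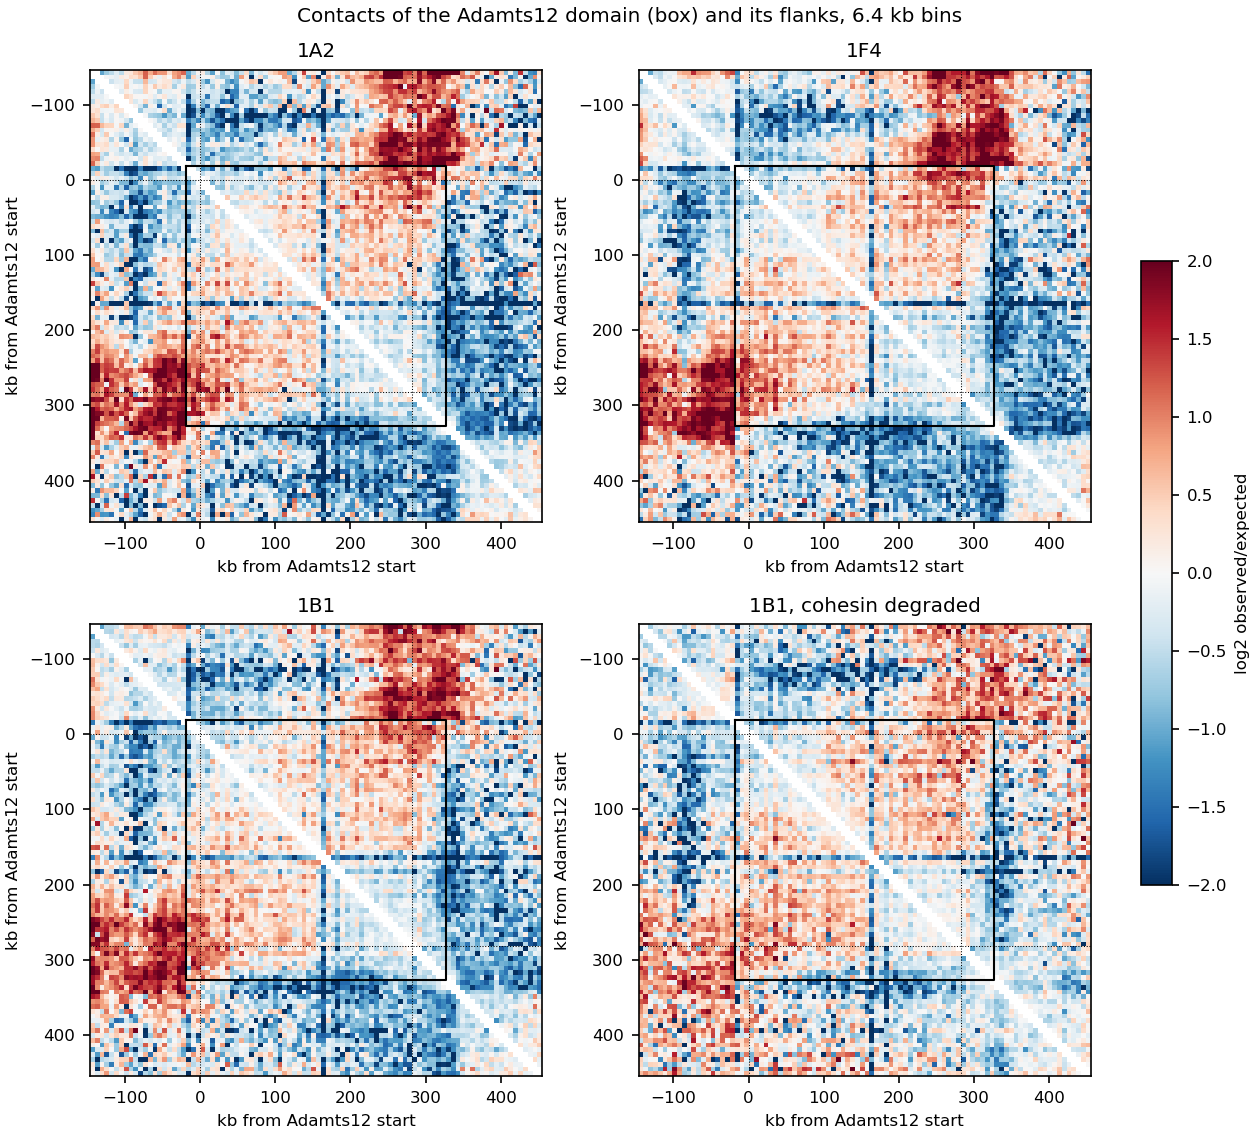
Log2 O/E of bin pairs in the 4 libraries, with both axes in kb from the Adamts12 start and the domain boxed; dotted lines mark the gene's start and end. Red contacts fill the upper right of the box, the contact of the gene's start with its far end, and the blue stripe is the bin chr15:11155201-11161600.

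Where the domain's bins sent their contacts differed more between the libraries. Counting signal at least 2 bins from the diagonal, 53.7% of it stayed inside the domain in 1A2, 55.4% in 1F4, 52.2% in 1B1 and 59.1% with cohesin degraded. The share joined to the stretches upstream was 23.8%, 23.3% and 24.3% in the untreated libraries and 17.3% after degradation. The share joined to everything downstream was 22.5%, 21.3%, 23.6% and 23.6%. The array TAD alone took 15.1%, 14.2%, 15.8% and 15.9%. By these shares the domain's signal was more confined to the domain after degradation, less directed upstream, and as much directed downstream as in 1B1. The shares use unscaled signal, whose decay was steeper after degradation over the whole region, and they were not computed for other stretches. At 10 to 53 bins the O/E of the domain with the upstream stretches was 0.964, 0.968, 0.947 and 0.922, a log2 change of -0.04 ± 0.02 from 1B1. With the array TAD it rose by 0.64 ± 0.03, so O/E did not show the same confinement.

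Contacts inside the gene were uneven along its length. The 45 bins of the gene were split into 3 segments of 96.0 kb: the start segment (chr15:10988801-11084800) holds exons 1 to 3 of 24, the middle segment (chr15:11084801-11180800) exons 4 to 7, and the end segment (chr15:11180801-11276800) exons 8 to 24, so that most of the start segment is intron 2 of 80.1 kb and much of the middle segment is intron 3 of 63.5 kb. All pairs at least 4 bins apart were used. Within the start segment O/E was near or below average, 0.936 ± 0.020 in 1A2, 0.915 ± 0.018 in 1F4, 0.933 ± 0.020 in 1B1 and 0.917 ± 0.020 after degradation. Start with middle segment reached 1.12 ± 0.019, 1.16 ± 0.018, 1.14 ± 0.019 and 1.22 ± 0.021. Start with end segment was the highest inside the gene, at 1.62 ± 0.027 (4872 reads), 1.63 ± 0.024 (5807 reads), 1.53 ± 0.025 (4836 reads) and 1.54 ± 0.030 (3604 reads). In all 4 libraries the 2 outer segments of the gene therefore contacted each other more, for their separation, than either contacted the middle. The outer segments are also the farthest apart, and O/E rose with separation outside this gene too. In 1A2 it was 0.952 at 25.6 to 64.0 kb and 1.86 at 262.4 to 339.2 kb in the domain. The array TAD had 0.913 and 1.78 in the same bands, so such a rise was not particular to Adamts12.

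The end of the gene had O/E below 1 with itself and with the bins past it. Within the end segment O/E was 0.882 ± 0.020, 0.890 ± 0.018 and 0.861 ± 0.019 in 1A2, 1F4 and 1B1 and 0.964 ± 0.020 after cohesin degradation, a log2 change of 0.16 ± 0.04 from 1B1. End segment with the 7 bins past the gene was 0.722 ± 0.015, 0.729 ± 0.014 and 0.706 ± 0.014 and then 0.809 ± 0.017, a change of 0.20 ± 0.04. Middle with end segment was 1.13 ± 0.019, 1.14 ± 0.018 and 1.15 ± 0.019 and then 1.26 ± 0.022, a change of 0.13 ± 0.03. These changes were larger than the differences among the untreated libraries for the same pairs, which spanned at most 0.05 on the log2 scale. Start with end segment, in contrast, changed by 0.00 ± 0.04 against 1B1, while its unscaled signal changed by -0.57. Over the whole gene body, pairs at least 10 bins apart had an O/E of 1.28 ± 0.014, 1.31 ± 0.013, 1.27 ± 0.013 and 1.35 ± 0.015, a change of 0.08 ± 0.02 from 1B1 beside a range of 0.04 among the untreated libraries.

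Each bin was also followed against the rest of the domain at least 10 bins away. The median bin had an O/E of 1.22, 1.25, 1.23 and 1.26 in 1A2, 1F4, 1B1 and cohesin degraded, and 48, 49, 49 and 49 of the 54 bins were above 1. The highest in every library was the bin chr15:11027201-11033600 in intron 2, at 1.77, 1.81, 1.74 and 1.88. The lowest in every library was chr15:11155201-11161600, at 0.410, 0.398, 0.443 and 0.421. That low bin held 33.8% to 39.2% of the median number of read ends per domain bin, carried 30 sites of the restriction enzyme MboI (GATC) where the median domain bin had 14, and kept 37.8% to 40.8% of its balanced signal within itself against medians of 16.2% to 19.4%. Balancing gives each bin the same total, and the part of coverage in this bin's low contacts was not tested. Leaving out the 3 domain bins with the fewest reads, which include it, gave a log2 change of domain O/E from 1B1 to cohesin degraded of 0.028, where all bins gave 0.033.

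For their separation, the contacts of the Adamts12 promoter were higher with the end segment of its own gene than with the nearer segments. With the start segment beyond 4 bins (25.6 kb), its O/E was 0.823 ± 0.028, 0.862 ± 0.027 and 0.882 ± 0.029 in 1A2, 1F4 and 1B1 and 0.933 ± 0.030 with cohesin degraded. With the middle segment it was 1.14 ± 0.046, 1.18 ± 0.043, 1.14 ± 0.045 and 1.13 ± 0.051. With the end segment it was 1.96 ± 0.067 (1079 reads), 2.09 ± 0.063 (1340 reads), 1.92 ± 0.064 (1087 reads) and 1.56 ± 0.068 (623 reads). In each library the contact rose from the start to the end segment, and the rise was smallest after degradation. The segments also differ in their separation from the promoter, and O/E rose with separation in the array TAD as well, as given above.

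The high contact of the promoter did not stop at the end of the gene. With the 7 bins between the gene's end and the end of the domain, which hold SNORA17 and the 3′ part of Tars, O/E was 2.14 ± 0.10, 2.16 ± 0.097, 2.23 ± 0.10 and 1.77 ± 0.12 in 1A2, 1F4, 1B1 and cohesin degraded. With the next 3 bins, which hold the rest of Tars with its start and the boundary bin, it was 1.32 ± 0.13, 1.23 ± 0.12, 1.27 ± 0.13 and 1.11 ± 0.15. In the first 20 bins of the array TAD it was 1.04 ± 0.054, 1.01 ± 0.049, 1.13 ± 0.055 and 1.26 ± 0.072. The profile thus dropped at the downstream edge of the domain in every library, and the drop was smallest after degradation. The bin of highest contact differed between libraries. It was the bin starting 307.9 kb from the gene's start in 1A2 (O/E 3.15 ± 0.341, 89 reads), 237.5 kb in 1F4 (3.06 ± 0.307, 104 reads), 301.5 kb in 1B1 (2.89 ± 0.285, 107 reads) and 269.5 kb with cohesin degraded (2.31 ± 0.331, 51 reads). In each library at least 1 other bin lay within the counting error of the highest, so the order of the highest bins is not resolved. Of 48 bins followed inside the domain, 31, 35, 35 and 37 were above 1 and 9, 12, 10 and 6 were above 2. In all 4 libraries 4 bins were above 2, which start between 250.3 and 301.5 kb from the gene's start. Upstream of the promoter, over the same range of separations as the gene body, O/E was 0.706 ± 0.026, 0.703 ± 0.023 and 0.719 ± 0.025 and rose to 0.905 ± 0.037 after degradation (log2 change 0.33 ± 0.08). The promoter therefore contacted its gene more than its upstream flank in all 4 libraries, with a smaller gap after degradation.

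**Figure D2:**
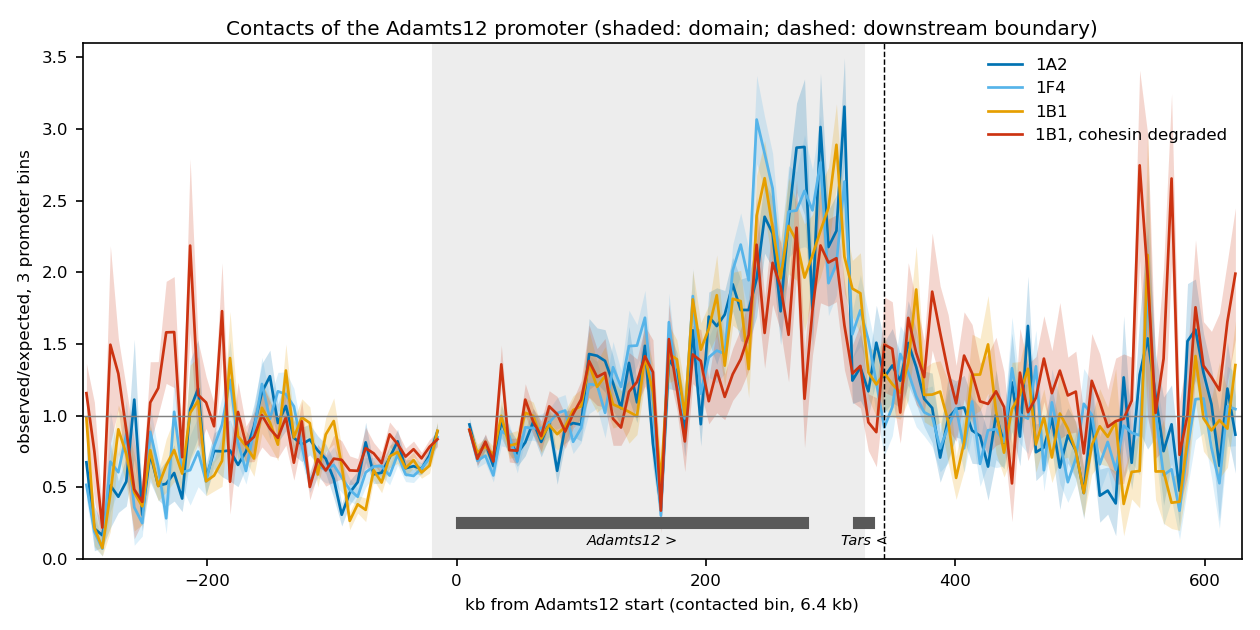
O/E of the 3 promoter bins of Adamts12 with each 6.4 kb bin, against kb from the gene's start, with bands of ± 1 counting error. The profiles climb along the gene to peaks of 2.31 (cohesin degraded, red) to 3.15 (1A2) inside the shaded domain. The peak bins start between 237.5 and 307.9 kb from the gene's start. The mean over the end segment was 1.56 in the cohesin-degraded library and 1.92 to 2.09 in the others.

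Against 1B1, the promoter's contact with the end segment was lower after cohesin degradation by a log2 change of -0.31 ± 0.08, with the past-gene bins by -0.34 ± 0.12, and with the whole gene body beyond 4 bins by -0.14 ± 0.05. The untreated libraries spanned 0.12, 0.06 and 0.07 for the same sets. The 3 bins of the viewpoint gave different values, and the differences between their changes were not tested. For contact with the end segment, the bin upstream of the promoter bin had an O/E of 1.97 ± 0.11 in 1B1 and 1.51 ± 0.11 after degradation (change -0.39 ± 0.13). That bin was at 1.85 ± 0.10 in 1A2 and 2.42 ± 0.11 in 1F4. These untreated lines differed by 0.38 ± 0.10, about as much as the 1B1 libraries. The bin downstream of the promoter bin went from 1.92 ± 0.13 to 1.33 ± 0.13 (change -0.53 ± 0.17), beside 1.87 ± 0.13 in 1A2 and 1.65 ± 0.11 in 1F4. The bin that holds the start site itself was at 1.87 ± 0.097 and 1.83 ± 0.12, a change of -0.04 ± 0.12. The promoter bin alone had values of 2.16 ± 0.11 in 1A2 and 2.19 ± 0.10 in 1F4, above both 1B1 libraries. The lower contact with the end segment was thus measured at the 2 bins beside the promoter bin, and for the gene body as a whole the promoter bin alone gave a change of the opposite sign, 0.023. With the bins past the gene the promoter bin alone was lower as well, by a log2 change of -0.31 ± 0.18.

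The far end of the domain also reached past the domain's start. The 15 bins upstream of the domain (chr15:10880001-10976000, a set chosen after the maps were seen) had O/E values with the start segment of 0.601 ± 0.014, 0.579 ± 0.012, 0.621 ± 0.014 and 0.637 ± 0.016. With the middle segment they were at 0.883 ± 0.021, 0.842 ± 0.019, 0.806 ± 0.020 and 0.751 ± 0.023. With the end segment they were at 1.93 ± 0.034 (4495 reads), 1.99 ± 0.031 (5521 reads), 1.89 ± 0.032 (4574 reads) and 1.28 ± 0.035 (2030 reads). With the bins past the gene they were at 2.90 ± 0.061 (2927 reads), 3.22 ± 0.058 (3903 reads), 2.74 ± 0.056 (2952 reads) and 1.94 ± 0.062 (1243 reads). The 5′ flank therefore contacted the 3′ end of Adamts12 more than it contacted the 5′ end, for the separations concerned, in all 4 libraries. The changes after degradation were 0.04 ± 0.05, -0.10 ± 0.06, -0.56 ± 0.05 and -0.50 ± 0.05 in the same order, so that the contacts with the end segment and beyond were lower while that with the start segment stayed within its error. Among untreated libraries the last set spanned 0.23 on the log2 scale, with a difference of -0.23 ± 0.04 between 1B1 and 1F4.

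Named windows of 3 by 3 bins gave the ends of these contacts on their own. Promoter with gene end (chr15:11270401-11276800, exon 24), 281.6 kb apart, had an O/E of 2.50 ± 0.21 in 1A2 (174 reads), 2.48 ± 0.18 in 1F4 (207 reads), 2.10 ± 0.18 in 1B1 (156 reads) and 1.72 ± 0.19 with cohesin degraded (94 reads). It did not stand above the bins around it, as the ratio to the surrounding ring was 0.966 ± 0.083, 0.936 ± 0.072, 0.910 ± 0.081 and 0.956 ± 0.11. The reads of this window did not separate the treated and untreated 1B1 libraries (Fisher's exact test, odds ratio 0.901, p = 0.438, adjusted p = 0.676). These two-sided tests set the window against the other reads of the region at its 5 separations. They compare libraries, not conditions, and the Benjamini-Hochberg adjustment ran over 17 tests.

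Promoter with the last domain bin (chr15:11315201-11321600, in Tars) was at 1.25 ± 0.11 in 1A2 (145 reads), 1.61 ± 0.12 in 1F4 (215 reads), 1.68 ± 0.13 in 1B1 (197 reads) and 1.20 ± 0.14 after degradation (91 reads). The reads differed between the 1B1 libraries (odds ratio 0.714, exact p = 0.00759, adjusted p = 0.043), but 1A2 was as low as the degraded library. This window and the next reach 1 bin past the end of the domain, and the next also reaches 1 bin into the upstream flank, whose contacts with the past-gene bins are given above. First with last domain bin was at 2.35 ± 0.18 (206 reads), 2.33 ± 0.16 (265 reads), 2.06 ± 0.16 (212 reads) and 1.57 ± 0.18 (98 reads), with the degraded library below all others (odds ratio against 1B1 0.709, exact p = 0.00495, adjusted p = 0.042). In the 9 tests among untreated libraries the lowest exact p was 0.0501 (adjusted p = 0.213).

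Focal contacts were taken as the 5 windows that stood most above their ring in 1A2 and 1F4, of 18 local maxima with 100 or more reads in both, so that their values in those libraries are a description. The highest joined intron 3 (chr15:11136001-11142400) to the gene's last bin (chr15:11270401-11276800), with ratios to the ring of 1.59 ± 0.15, 1.37 ± 0.14 and 1.56 ± 0.15 in 1A2, 1F4 and 1B1 and 1.24 ± 0.15 after degradation. Its reads did not separate the 1B1 libraries (odds ratio 0.881, exact p = 0.307, adjusted p = 0.627). The second joined the first domain bin to the bin of exon 20 (chr15:11244801-11251200), with ratios of 1.44 ± 0.098, 1.40 ± 0.085, 1.23 ± 0.086 and 0.927 ± 0.11. Its O/E was 3.38 ± 0.21 (279 reads), 3.38 ± 0.19 (341 reads), 2.69 ± 0.18 (255 reads) and 1.46 ± 0.17 (88 reads), and here the 1B1 libraries differed (odds ratio 0.504, exact p = 9.56e-09, adjusted p = 1.63e-07). The window reaches 1 bin out of the domain into the upstream flank whose contacts with the end segment are given above.

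The other 3 focal contacts lay inside or at the end of the gene and showed little difference after degradation. Intron 2 (chr15:11020801-11027200) with the bin just past the gene (chr15:11276801-11283200) had ratios to the ring of 1.38 ± 0.14, 1.35 ± 0.13, 1.37 ± 0.13 and 1.42 ± 0.17. The bin of exons 10 to 12 (chr15:11187201-11193600) with the same past-gene bin had ratios of 1.28 ± 0.11, 1.33 ± 0.10, 1.24 ± 0.10 and 1.12 ± 0.099. Its O/E was 0.912 ± 0.074, 0.949 ± 0.069, 0.893 ± 0.072 and 0.896 ± 0.076, so it stood above its ring while below 1 in all 4 libraries. Intron 3 (chr15:11136001-11142400 again) with the bin of exon 14 (chr15:11206401-11212800) had ratios of 1.29 ± 0.087, 1.32 ± 0.084, 1.27 ± 0.088 and 1.19 ± 0.081. In log2 O/E these 3 changed by 0.03 ± 0.22, 0.00 ± 0.17 and 0.06 ± 0.13 from 1B1 (adjusted exact p = 0.947, 0.886 and 0.676), so the errors do not exclude changes of the size seen at some other contacts. The median change over the 5 focal contacts was 0.004. With windows of 1 by 1 bin it was -0.26, and with windows of 5 by 5 bins 0.057.

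Across the 990 windows with both centres in the domain and at least 10 bins apart, 15 were at least 1.5-fold lower in O/E after cohesin degradation than in 1B1, which is 1.52% beside 10.8% of the 18350 windows of the region from 10 to 53 bins apart. The region's windows include a larger share of long separations, and weighted to the domain's separations (a comparison added after the data were seen) the share was 9.71%. The number at least 1.5-fold higher was 4, or 0.404% beside 14.5%, and 13.2% with the same weights. Fewer windows of the domain than of the region as a whole moved in either direction, and the SD of the log2 ratio was 0.24 in the domain and 0.52 in the region. Of the 15 lower windows 9 were centred on the first domain bin and 1 on the second, both before the gene, and joined the end segment. Only 2 were centred in the start segment of the gene and joined the end segment. The other 3 joined past-gene bins, 1 to the start segment and 2 to the middle segment. The 9 windows overlap each other and reach 1 bin into the upstream flank. The 4 higher windows joined the start segment to the past-gene bins or the middle to the end segment. By segment pair, with the bins before the gene counted to the start segment, the median log2 change was -0.03 for start with end segment (255 windows), -0.09 for start segment with past-gene bins (119 windows), 0.09 for start with middle (210 windows), 0.16 for middle with end (180 windows), 0.05 for middle segment with past-gene bins (105 windows) and 0.21 for end segment with past-gene bins (63 windows). Most windows called lower thus belonged to 1 row of the map, centred on the first domain bin with the end of the gene. Such windows average that bin with 1 bin on each side. Alone, with the rest of the domain at least 10 bins away, the first bin changed by -0.24 ± 0.15 (278 reads in 1B1) and the second by -0.27 ± 0.08 (1069 reads). The lower contact was thus not particular to the first bin. Where windows centred on the first domain bin met the 7 past-gene bins, the ends of the domain proper, log2 ratios lay between -0.45 and -0.16 and 0 of 7 windows were called lower.

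Few windows of the domain differed between the untreated lines, with or without CTCF cassettes next door. In 1B1 against 1A2, 0 domain windows were at least 1.5-fold lower beside 1.67% of the region and 5 were higher (0.505% beside 3.32%). In 1B1 against 1F4, 0 were lower beside 1.65% and 1 was higher (0.101% beside 3.36%). In 1F4 against 1A2, 0 were lower beside 2.54% and 0 were higher beside 2.01%. Weighted to the domain's separations these shares of the region were 1.07% to 2.33%. The SD of the log2 ratio over domain windows was 0.19, 0.18 and 0.17 in these comparisons, below the 0.24 of the cohesin comparison.

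**Figure D3:**
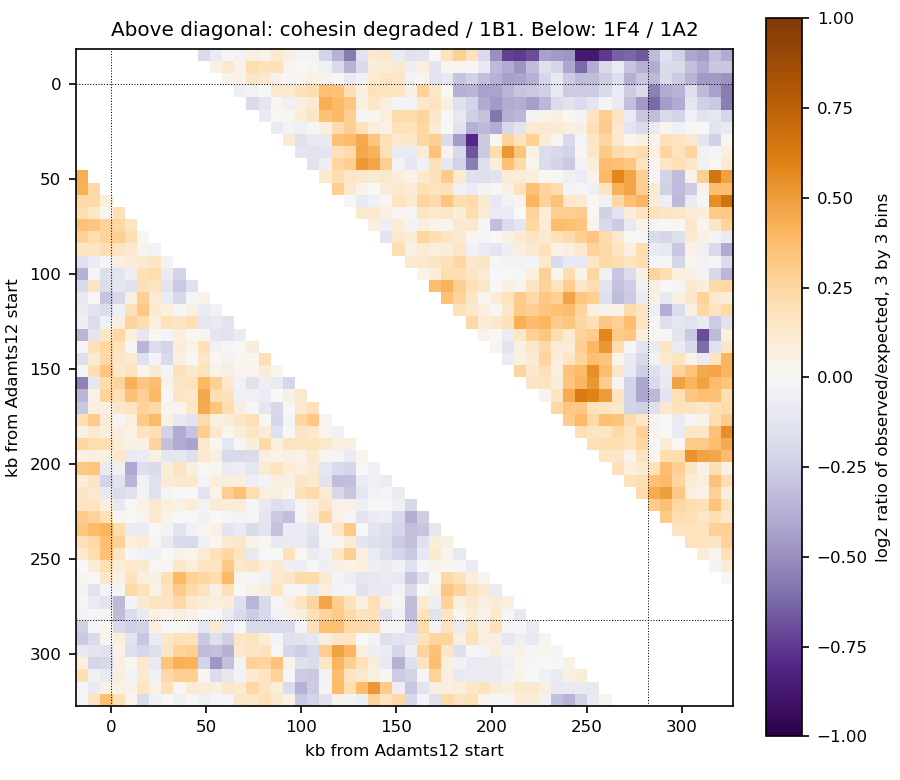
Log2 ratio of O/E in 3 by 3 windows of the domain at least 10 bins apart, axes in kb from the Adamts12 start, with cohesin degraded over 1B1 above the diagonal and 1F4 over 1A2 below it. The dark purple cells in the top row, windows centred on the first domain bin with the end segment of the gene, are 9 of the 15 windows at least 1.5-fold lower after degradation.

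Insulation, the log2 mean signal in a square of 20 by 20 bins across a bin relative to the region, has its minima at domain boundaries. In the mean of 1A2 and 1F4 no domain bin was the lowest within 5 bins on either side, and the nearest bins that were are the bin just before its first bin (chr15:10969601-10976000) and the bin chr15:11334401-11340800 that holds the CTCF core matches printed above. At the upstream boundary insulation was -0.63 ± 0.022, -0.67 ± 0.020 and -0.62 ± 0.021 in 1A2, 1F4 and 1B1 and -0.59 ± 0.023 after cohesin degradation. At the downstream boundary it was -1.10 ± 0.025, -1.09 ± 0.023, -0.96 ± 0.023 and -0.28 ± 0.020. The downstream boundary was thus the deeper one in all 3 untreated libraries and the shallower one after degradation. The differences from 1B1 were 0.03 ± 0.031 upstream and 0.68 ± 0.031 downstream, beside a median of 0.01 over 416 bins of the region. The downstream boundary had the highest difference of these bins, and over the 375 bins more than 20 bins away from it the range was -0.73 to 0.60. The upstream difference depended on the square: with 10 by 10 bins it was 0.171 at the upstream boundary, 0.188 at the first domain bin and 0.071 at the Adamts12 start, while the downstream difference was 0.698.

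Inside the domain the same difference grew towards the 3′ end of Adamts12, which is also the end nearest the downstream boundary. At the gene's start insulation was -0.54 ± 0.022, -0.57 ± 0.021, -0.52 ± 0.022 and -0.52 ± 0.023, a difference of 0.00 ± 0.032 between the 1B1 libraries. At the gene's end it was -0.74 ± 0.021, -0.68 ± 0.019, -0.68 ± 0.020 and -0.36 ± 0.020, a difference of 0.32 ± 0.028. At the last domain bin it was -1.0 ± 0.024, -0.95 ± 0.021, -0.87 ± 0.022 and -0.28 ± 0.020, a difference of 0.59 ± 0.030. By segment, the median difference was 0.04 over the middle segment, 0.20 over the end segment, where 15 of 15 bins were higher, and 0.41 over the bins past the gene, where 7 of 7 were higher. Shallow dips that this rule does not count lay near the end of the domain, and all 4 libraries dipped in the bin chr15:11283201-11289600 just past the gene, at -0.92, -0.85, -0.81 and -0.49. In the untreated libraries insulation was lower still at the downstream boundary, with small rises on the way. After degradation it was not, so that this bin was lower than the boundary in that library. The squares of neighbouring bins overlap, so these bins are not independent. The O/E between the domain and the array TAD at 10 to 53 bins was higher too after degradation, at 0.572 ± 0.0080, 0.571 ± 0.0072, 0.620 ± 0.0080 and 0.963 ± 0.012, a change of 0.64 ± 0.03. The unscaled signal of these pairs was 30.1, 28.9, 33.9 and 35.3, a log2 change of 0.06, so that it stayed about level while the signal of the region at these separations fell.

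The untreated libraries differed little in insulation, and in the domain most past the gene. At the last domain bin 1B1 was above 1A2 by 0.12 ± 0.032 and above 1F4 by 0.07 ± 0.030, and at the downstream boundary by 0.14 ± 0.034 and 0.14 ± 0.032. At the gene's start these differences were 0.02 ± 0.031 and 0.05 ± 0.030. Over the 375 bins of the region more than 20 bins from the downstream boundary, 1B1 minus 1A2 ranged from -0.15 to 0.15 and 1B1 minus 1F4 from -0.21 to 0.20. Of these bins, 1 and 9 had a difference at least as high as the boundary in the respective comparisons.

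**Figure D4:**
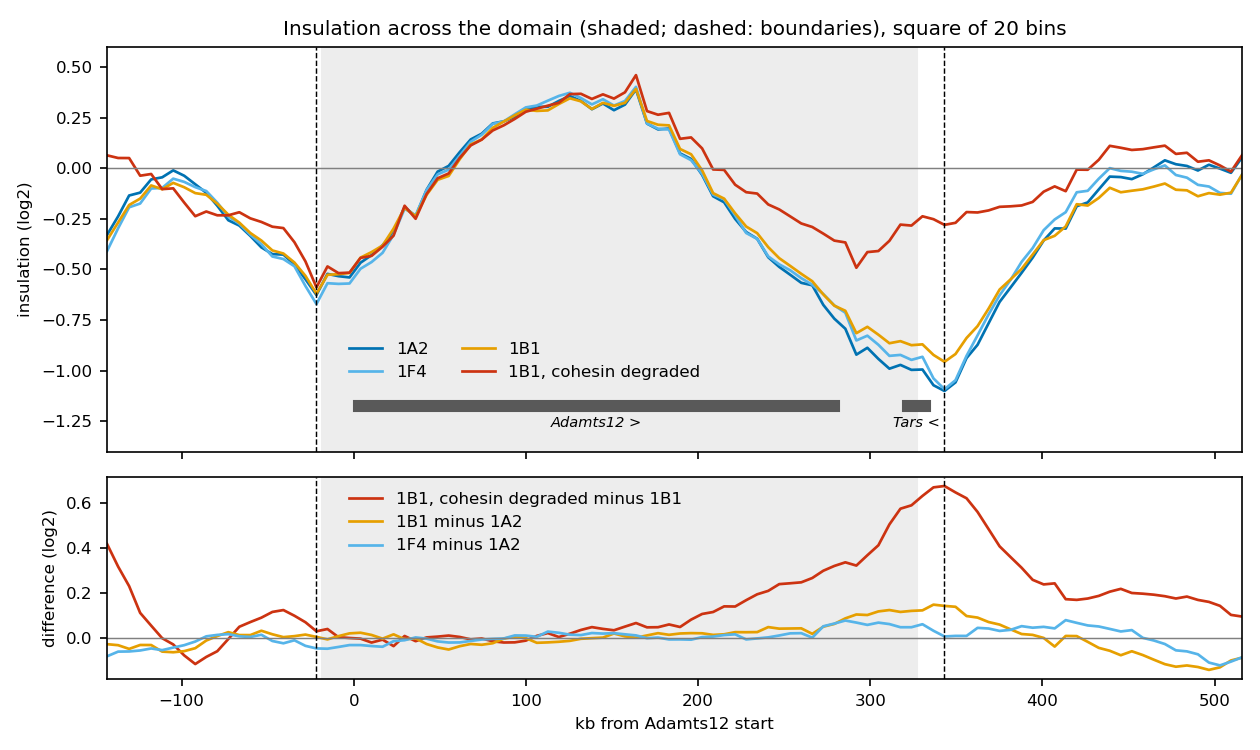
Insulation (log2) of each bin against kb from the Adamts12 start in the 4 libraries (top), and differences between libraries (bottom); the domain is shaded and boundaries are dashed. The cohesin-degraded line departs from the others over the end of the gene and is highest above them at the downstream boundary, 0.68 above 1B1.

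Contacts inside the domain fell off more steeply after cohesin degradation. The slope of log10 signal on log10 separation from 25.6 to 256.0 kb was -0.563 ± 0.012, -0.557 ± 0.011 and -0.551 ± 0.012 in 1A2, 1F4 and 1B1 and -0.861 ± 0.014 with cohesin degraded. The untreated libraries were within their errors of each other, and the difference from 1B1 was -0.310 ± 0.018. The array TAD went from -0.581 ± 0.009 to -0.912 ± 0.010 (difference -0.332 ± 0.013), and the captured region from -0.797 ± 0.003 to -1.06 ± 0.004 (difference -0.263 ± 0.005). The order of these differences depended on the range of separations. From 12.8 to 128.0 kb they were -0.193 ± 0.015 in the domain, -0.247 ± 0.012 in the array TAD and -0.251 ± 0.005 in the region, and from 64.0 to 320.0 kb -0.474 ± 0.038, -0.433 ± 0.022 and -0.232 ± 0.008. All 3 were steeper after degradation over each range, and the domain steepened less than the region over the short range and more over the longer ones.

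By separation, the domain's signal was higher after degradation at short range and lower beyond. At 25.6 to 64.0 kb it was 199, 196 and 198 in 1A2, 1F4 and 1B1 and 211 with cohesin degraded (log2 change 0.09 ± 0.02). At 134.4 to 192.0 kb it was 81.0, 80.4, 87.2 and 60.7 (change -0.52 ± 0.03). At 262.4 to 339.2 kb it was 78.2, 73.1, 77.3 and 41.1 (change -0.91 ± 0.07), where the array TAD changed by -1.0 ± 0.04 and the region by -0.70 ± 0.01. The untreated signal of the domain thus fell little between these last separations. The O/E of the domain's longest band was 1.86, 1.82, 1.77 and 1.53, a log2 change of -0.21 against 1B1. In the shorter bands, from the shortest on, its O/E changed by 0.07, 0.15, 0.03 and -0.03. The longest band of the array TAD had an O/E of 1.78, 1.85, 1.66 and 1.35, a change of -0.3. The loss of signal in the longest band of the domain thus exceeded that of the region, and was close to that of the array TAD.

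**Figure D5:**
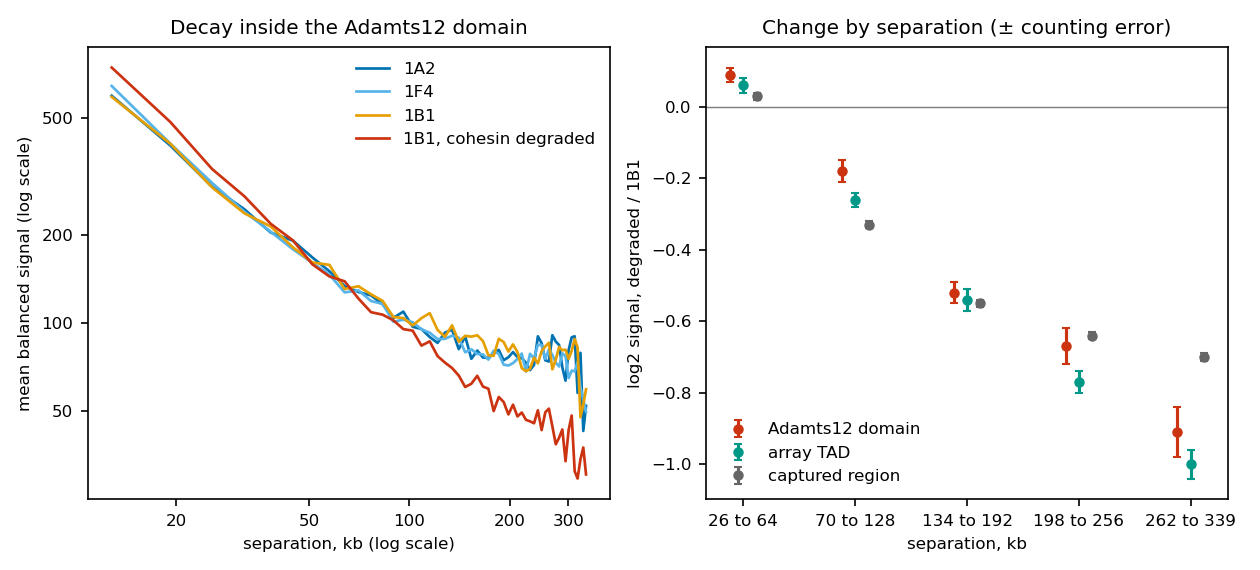
Left, mean balanced signal inside the domain against separation in kb (both axes logarithmic) in the 4 libraries. Right, log2 signal of cohesin degraded over 1B1 in 5 bands of separation for the domain, the array TAD and the captured region, with ± 1 counting error; the domain goes from 0.09 in the shortest band to -0.91 in the longest.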

How the data were processed

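Fixed chromatin of E14 mESCs was digested with MboI and ligated, and the products were captured with tiled oligonucleotides and sequenced. The authors processed them with HiC-Pro 2.11.4 on mm9 (tool, version and build as in the submitters' processing notes), binned them at 6.4 kb and deposited ICE-balanced contact signal per bin pair, scaled to about the same sum in each library, so that this signal does not carry depth. Balancing divides out bin coverage and makes a bin with much signal in itself low elsewhere. Reads were recovered from the deposited signal as value = reads × factor of each bin, and 100% of values came within 0.05 of a whole read. Molecular identifiers are not given in the sources used here.

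Python 3.11.15, numpy 2.4.6, scipy 1.17.1 and pandas 2.3.3 were used. Groups came from the sample labels. O/E, windows of 3 by 3 bins, the ring between 5 by 5 and 11 by 11 bins, insulation and decay slopes were computed as the results state, with Poisson errors, and were tested on simulated data. Background windows were those with at least 80 reads over the 4 libraries. Fisher's exact tests used recovered reads. Named bins were the gene's start and end, the ends of the domain and nearby insulation minima; named pairs joined them or were the 5 focal contacts. Genes overlapping the domain came from GENCODE on NCBIM37, whose chromosome 15 length equals that of the bin table. Alternatives covered viewpoint and window width, expected value, balancing, separations, domain ends, insulation square, slope range and the reference library. Domain, bins and tests were chosen with earlier results of these data known, and the upstream 15 bins, the result for promoter and end segment, the thin-bin alternative, the shares weighted by separation and the further slope ranges and squares after the contact values were seen. All 4 maps belonged to this series, with 0 columns of other series. The other captured regions were used only for the share of reads that join them.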

Additional observations from a re-analysis of the deposited data

Results flagged for a closer look

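Reads joining domain bins to the other captured regions, on chromosomes 1 and X, were used in no comparison above. They made up 0.0696% of the reads that touch the domain in 1A2 (133 reads, exact 95% interval 0.0583% to 0.0825%), 0.0626% in 1F4 (147 reads, 0.0529% to 0.0735%), 0.0877% in 1B1 (169 reads, 0.0750% to 0.102%) and 0.103% in 1B1 with cohesin degraded (208 reads, 0.0896% to 0.118%). The share with cohesin degraded was above that of every untreated library, and its interval overlapped that of 1B1. Untreated lines differed as well, as the interval of 1F4 lay below that of untreated 1B1. The same share was not computed for the other bins of the region on chromosome 15, so these values do not describe the domain in particular. The differences were not tested further.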

How the results depend on the processing

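Over 14 results and 51 alternatives, each result being the change from 1B1 to cohesin degraded, 38 alternatives stayed within the 95% counting interval of the value reported, and 6 changed sign, of which 5 lay within that interval. With the promoter bin alone, the change with the gene body turned from -0.136 to 0.023 (log2), and that with the end segment went from -0.305 to -0.036, the latter result and its alternatives being added after the data were seen. The insulation difference at the last domain bin was 0.591 with squares of 20 bins, 0.51 with squares of 10 bins and 0.516 on unbalanced reads. With squares of 10 bins it was 0.188 at the first domain bin (0.042 with 20), 0.171 at the upstream boundary (0.031 with 20) and 0.071 at the Adamts12 start (0.002 with 20). The difference in decay slope was -0.193 over 2 to 20 bins and -0.474 over 10 to 50 bins, beside -0.310 over 4 to 40. Over the same ranges it was -0.247, -0.433 and -0.332 in the array TAD and -0.251, -0.232 and -0.263 in the captured region, and these further ranges and the squares at the boundaries were added after the data were seen. The cause of these shifts was not tested. Leaving out the 3 thinly covered bins, added after the data were seen, kept domain strength, gene body contact and promoter to gene body contact, the 3 results it was run for, within their intervals. No paired analysis was possible because each group had 1 library, and no library could be left out for the same reason. Depth limits single windows and single-bin viewpoints: windows with 88 to 98 reads in the degraded library had log2 errors of 0.19 to 0.22, and the bin downstream of the promoter bin, with 47 reads to the past-gene bins, 0.26.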
